A study of Mus musculus with 48 samples.

Results

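Expression of 10 imprinted growth genes was examined in subcutaneous (inguinal) white adipose tissue (sWAT) of mice on twice-a-night (TAN) feeding. The members are Peg3, Igf2, Mest, Dlk1 and Plagl1, which are expressed from the paternal allele, and Zim1, H19, Meg3, Grb10 and Cdkn1c, which are expressed from the maternal allele. All 10 were found by symbol among the 54532 genes of the count table. Peg3 was chosen by its lower level under TAN in these same libraries, so its differences between diets are described without a test, and the other members were added by name as imprinted genes of growth control. The mice were C57BL/6 males, 8 months old in all groups, on regular chow. TAN mice could eat only in an early and a late window of the dark phase, and ad-lib mice had food at all times. Tissue was taken at 8AM, 12PM, 4PM, 8PM, 12AM and 4AM, with 4 libraries of each diet at each time and 48 in all. Nothing in the labels says how these 4 libraries were separated as animals, so p-values measure the spread between libraries. Poly-A RNA of bulk tissue was sequenced, in which fewer cells of a type and less RNA per cell cannot be told apart.

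Imprinted genes carry marks from the germ line that silence either the maternal or the paternal copy, so that each cell reads mostly a single copy. Many of them act on growth and nutrient use, and as a broad pattern paternally expressed members promote growth while maternally expressed members restrain it. In adipose tissue Dlk1 (Pref-1) marks preadipocytes and holds back their differentiation, Mest varies widely between genetically identical mice with the capacity of fat to expand, and Grb10 dampens insulin and IGF receptor signalling.

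Total counts per library ranged from 15636400 to 29913300 in ad-lib libraries and from 15685100 to 25440200 in TAN libraries. The material is named a stromal vascular fraction in the series text and whole sWAT in the study, and its 8 adipocyte markers were high in every library, with Adipoq at a median of 2752 CPM (counts scaled to library size). TAN replicates 1 and 2 at 8PM stood apart: the mean log2 CPM of adipocyte markers was 9.42 and 8.82 against a median of 10.9 over TAN libraries, and that of 9 stromal progenitor markers was 5.10 and 4.74 against a median of 6.97. Endothelial markers were also low in them, at 4.14 and 3.99 against 6.56, and Schwann cell markers, at -0.07 and -0.06 against 3.48. Lymphocyte markers were high in them, at 7.59 and 7.69 against 6.32. Values at 8PM for which these libraries were low are given without them as well. Skeletal muscle markers ranged over 48 libraries from -2.31 to 8.33 and lymphocyte markers from -0.26 to 7.69 on the mean log2 CPM scale, so that libraries differed widely in these markers. Each of the 48 libraries matched a library listed 12 h away in the study's supplementary expression tables, and 0 matched under the same time. Times are those of the sample labels, under which ad-lib Dbp, a clock output gene, peaked at 4PM (mean 101.9 CPM) and was lowest at 8AM (8.37 CPM), and the groups compared hold the same libraries under either labelling.

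Levels per length differed widely between members. As the median over 48 libraries of RPKM, which divides CPM by gene length in kilobases, Mest stood at 7.96, Cdkn1c at 7.57, Grb10 at 5.37, Plagl1 at 2.86 and Peg3 at 1.87. Mest and Cdkn1c, neighbours in this order, overlapped in their middle ranges (quartiles 4.00 to 15.1 and 6.09 to 9.43 RPKM), as did Plagl1 and Peg3 (1.997 to 4.24 and 1.13 to 3.02 RPKM). H19 at 0.280, Zim1 at 0.150, Dlk1 at 0.143 and Meg3 at 0.0658 RPKM formed a low group with overlapping quartiles from one to the next. Igf2, the fetal growth factor, was at 0 counts in 39 of 48 libraries, with 17 counts in all over the 24 ad-lib libraries and 13 over the 24 TAN libraries. Its highest library, ad-lib replicate 3 at 4PM, held 11 counts, and Igf2 was the 1 member that did not pass the filter on low counts, so that 9 members entered the fit across 19977 genes. A count of 0 allows up to 3 counts in a library. Mest overlaps the abundant Copg2, which lies on the other strand. Strandedness is not stated, so reads of this pair cannot be fully told apart.

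Peg3 encodes a zinc finger protein that acts in growth, maternal behaviour and fat storage in mice. It lies on chromosome 7 at 6703892 to 6730431 on the minus strand of GRCm38, beside Zim1 at 6671269 to 6696450 on the same strand, and Plagl1 lies on chromosome 10 at 13060504 to 13131694 on the plus strand. Zim1 and Plagl1 each deviated with Peg3 from library to library in ad-lib mice, and were not compared with each other. These relations did not pass with a slope on gene length removed, as given below. The RefSeq start regions of Peg3, Zim1 and Plagl1 (GRCm38.p6, 250 bases before to 50 after the start, 5′ to 3′) are shown because both relations passed by Pearson's r and Spearman's rho in ad-lib mice. Grb10, which passed by both in TAN mice but only by r in ad-lib mice, is not shown. CpG dinucleotides, where imprinting marks can lie as methylation, are in capitals, and methylation was not measured.
Peg3, chr7:6730370-6730669, minus strand: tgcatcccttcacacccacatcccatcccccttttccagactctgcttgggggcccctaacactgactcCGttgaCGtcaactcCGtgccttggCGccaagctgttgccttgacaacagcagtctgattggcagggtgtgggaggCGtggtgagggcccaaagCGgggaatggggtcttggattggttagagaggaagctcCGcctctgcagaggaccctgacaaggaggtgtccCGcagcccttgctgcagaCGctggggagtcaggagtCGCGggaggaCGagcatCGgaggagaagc
Zim1, chr7:6696383-6696682, minus strand: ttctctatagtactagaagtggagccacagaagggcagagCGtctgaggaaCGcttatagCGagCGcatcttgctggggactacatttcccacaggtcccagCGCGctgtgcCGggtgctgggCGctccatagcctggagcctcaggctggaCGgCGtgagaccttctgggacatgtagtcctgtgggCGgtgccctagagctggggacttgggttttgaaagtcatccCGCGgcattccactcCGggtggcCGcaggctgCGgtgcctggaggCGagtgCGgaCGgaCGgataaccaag
Plagl1, chr10:13090582-13090881, plus strand: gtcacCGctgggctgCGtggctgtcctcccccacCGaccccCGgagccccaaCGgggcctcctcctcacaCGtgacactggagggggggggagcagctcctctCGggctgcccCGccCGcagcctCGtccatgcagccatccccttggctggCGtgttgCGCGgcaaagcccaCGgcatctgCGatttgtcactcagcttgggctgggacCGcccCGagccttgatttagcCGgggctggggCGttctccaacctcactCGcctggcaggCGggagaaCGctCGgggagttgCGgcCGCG
The Peg3 window holds 13 CpG, that of Zim1 20 and that of Plagl1 26, against a median of 7 over 32851 RefSeq windows. These numbers lie at the 63.7, 75.2 and 84.5 percentile of all windows. The letters GGGGCCCC, a palindrome known as a binding site of the Plagl1 protein, occur 1 time in the Peg3 window, from its base 50, and in 1.08% of all windows, searched on both strands. Of 15 windows of 8 members that had one, only this window held them, which says nothing of binding.

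Peg3 in ad-lib libraries ran from 5.57 to 112 CPM with a median of 31.4, and in TAN libraries from 3.45 to 62.9 CPM with a median of 21.1. At 8PM the 4 ad-lib libraries held 37.1, 16.02, 24.2 and 29.5 CPM and the 4 TAN libraries 3.59, 3.45, 5.26 and 9.86 CPM. Every TAN library was below every ad-lib library at this time, and at none of the other 5 times were the diets separated. Such a lack of overlap, in either direction, was found in 16.1% of all genes tested at 8PM. At 12AM the ad-lib libraries held 20.2, 22.7, 20.6 and 33.2 CPM and the TAN libraries 4.73, 6.34, 6.27 and 21.5 CPM. Here 3 TAN libraries lay below all ad-lib libraries, and the last, replicate 4, lay among them.

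At 8AM, 12PM and 4PM the ad-lib libraries were scattered. At 8AM the ad-lib libraries held 57.2, 81.7, 7.15 and 25.8 CPM against 13.9, 30.7, 26.0 and 13.5 CPM in TAN. At 12PM they held 46.0, 23.2, 112 and 108 CPM against 30.5, 15.4, 62.9 and 21.2 CPM in TAN. At 4PM they held 24.3, 57.6, 40.0 and 95.4 CPM against 25.5, 33.8, 9.39 and 32.1 CPM in TAN. At each of these times the highest libraries were ad-lib while the lower ad-lib libraries fell within or below the TAN range. At 4AM the ad-lib libraries held 40.9, 15.8, 95.0 and 5.57 CPM against 43.8, 28.7, 44.7 and 20.9 CPM in TAN, with the ad-lib spread enclosing the TAN libraries on both sides.

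Fitted with edgeR, the log2 fold change of Peg3 (TAN minus ad-lib) was -1.03 (SE 0.64) at 8AM, -1.15 (SE 0.64) at 12PM, -1.11 (SE 0.64) at 4PM, -2.27 (SE 0.67) at 8PM, -1.32 (SE 0.65) at 12AM and -0.19 (SE 0.63) at 4AM. Over the 6 times the mean was -1.18 (SE 0.26), and no test is given since these values chose the gene. Without TAN replicates 1 and 2 at 8PM the value at 8PM was -1.83. At 4AM the sign turned without ad-lib replicate 3, to 0.73. With the share of counts on TEC loci (an annotation class of transcripts not yet verified) as a covariate, the mean was -0.71, the value at 8PM -0.56, at 12AM -0.33 and at 4PM 0.01. That share was 0.0294% to 0.0394% in the TAN libraries at 8PM and 0.0807% to 0.104% in the ad-lib libraries, without overlap. The length slope (the slope of a library's log2 deviations on log2 gene length) was -0.076 to -0.029 in TAN and -0.028 to 0.023 in ad-lib libraries at 8PM, and the mean log2 CPM of 5 endothelial markers 3.99 to 5.84 and 5.89 to 6.74, so that both were also lower in every TAN library, as were macrophage markers. With the slope as a covariate the value at 8PM was -1.60, and the part of these measures in the result was not tested. With lymphocyte markers as a covariate the value at 4PM was -2.18 and at 4AM 0.34.

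**Figure D1:**
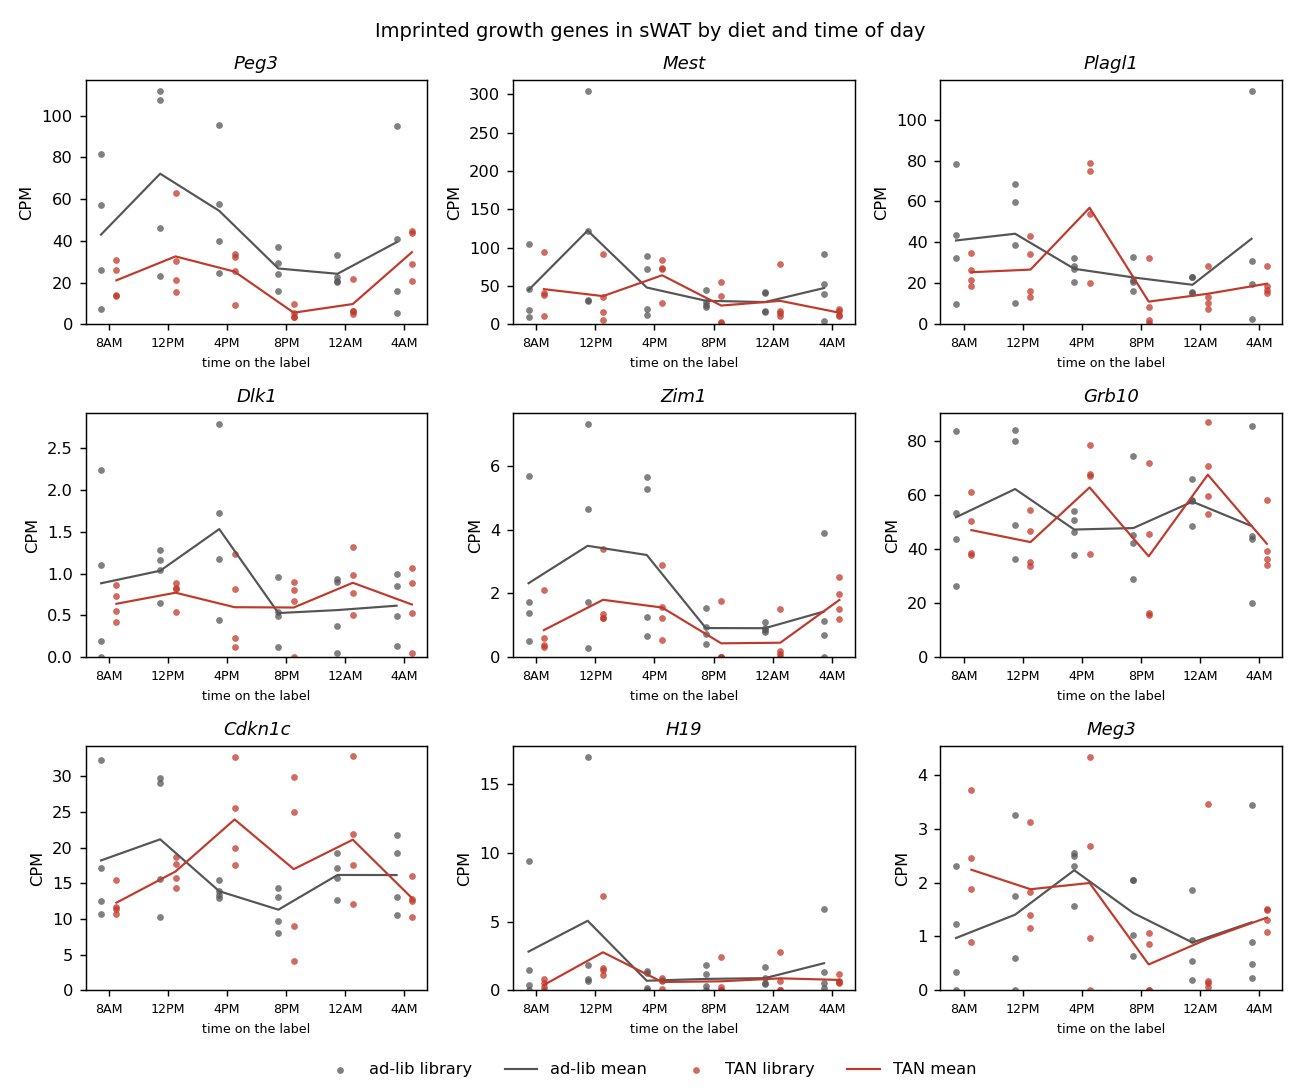
CPM (vertical axis, linear, each panel on its own scale) of the 9 members that passed the filter, by the time on the label. Points are libraries, 4 per diet and time, and lines join the group means, with ad-lib in grey and TAN in red. TAN libraries of Peg3 at 8PM lie between 3.45 and 9.86 CPM, below the ad-lib libraries, while most other groups overlap.

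Of the 8 other members that entered the fit, 0 were called at any time point by edgeR's quasi-likelihood test with an adjusted p below 0.05 and a change of more than 1 log2 unit either way. Over all 19977 genes the share called by this rule was 0.0150% at 8AM, 0.0901% at 12PM, 10.4% at 4PM, 7.03% at 8PM, 0.135% at 12AM and 0% at 4AM, where 232 genes passed by unadjusted p with the same fold limit. By unadjusted p under 0.05 with the same fold limit the count of members was also 0 at each time, and Cdkn1c at 4PM had an unadjusted p of 0.0477 below that limit. DESeq2 and limma voom called 0 members at each time as well, and by unadjusted p DESeq2 gave 1 at 8AM and 1 at 12PM and limma voom 3 at 8PM. In the mean over the time points 0 of the 8 were called at an adjusted p under 0.05, against 5.42% of all genes, with 0 by unadjusted p in edgeR and 1 each in DESeq2 and limma voom, which called 0. A TAN effect that differed between time points was called for 0 of 8, against 8.98% of all genes, with 0 by unadjusted p in edgeR, and 0 called and 1 by unadjusted p in each of DESeq2 and limma voom.

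In the mean over the time points 6 of the 8 members had a negative log2 fold change (75%), with a median of -0.35, beside 60.7% and a median of -0.08 over all genes. Of the paternally expressed members besides Peg3, Mest stood at -0.53 (SE 0.37), Plagl1, a zinc finger transcription factor, at -0.47 (SE 0.30) and Dlk1 at -0.23 (SE 0.38). Of the maternally expressed members, H19, a noncoding RNA, stood at -0.94 (SE 0.59), Zim1, a zinc finger gene next to Peg3, at -0.86 (SE 0.47) and Grb10 at -0.10 (SE 0.15), while Meg3, a long noncoding RNA, stood at 0.01 (SE 0.53) and Cdkn1c, the cyclin-dependent kinase inhibitor p57, at 0.09 (SE 0.16). Leaving out libraries moved several of these means by over 1.5 times without a call: Mest ran from -1.07 (without replicate 3 of all groups) to -0.26 (without replicate 1), Plagl1 from -0.83 (without replicate 4) to -0.27 (without ad-lib replicate 3 at 4AM), Dlk1 to -0.06 (without ad-lib replicate 4 at 8AM) and H19 from -1.46 (without TAN replicate 3 at 8PM) to -0.57 (without ad-lib replicate 3 at 12PM). The number of negative members was 6 of 8 at 8AM, 7 of 8 at 12PM, 4 of 8 at 4PM, 6 of 8 at 8PM, 3 of 8 at 12AM and 5 of 8 at 4AM. Over all genes the negative share at these times was 49.1%, 47.3%, 53.6%, 54.3%, 57.4% and 49.6%, in the same order. A TAN effect that differed between time points was called for 0 of 8 (lowest adjusted p 0.207 in edgeR's test). These counts are thus not read as a change of sign over the day. Without TAN replicates 1 and 2 at 8PM, 3 of the 8 were negative at 8PM (Plagl1, Zim1 and Meg3), with Mest at 0.59, H19 at 0.66 and Grb10 at 0.29.

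**Figure D2:**
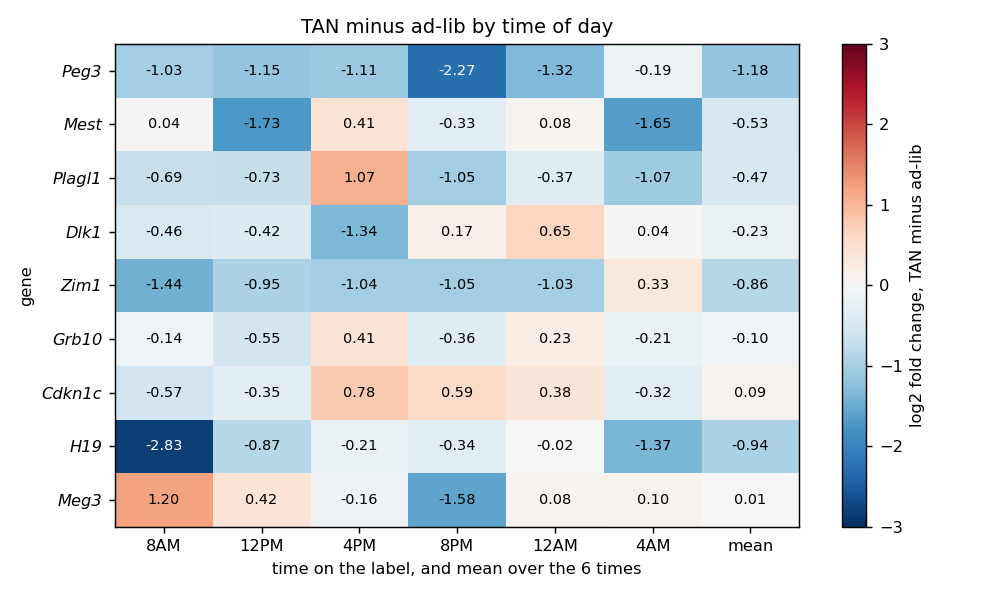
Log2 fold change (colour and number, TAN minus ad-lib, from the edgeR fit) of 9 members at each time on the label and in the mean over the 6 times. Blue cells are lower in TAN and red cells higher. Peg3, which was chosen for this difference, reads -2.27 at 8PM and -0.19 at 4AM.

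The mean difference of Zim1 had an adjusted p of 0.278 in edgeR's test. At 8PM the ad-lib libraries held 1.55, 0.730, 0.426 and 0.957 CPM, and the TAN libraries 0, 0, 1.75 and 0 CPM. The 3 TAN libraries at 0 lay below all ad-lib libraries and the remaining TAN library, replicate 3, above them all. Without that library the mean of Zim1 was -1.90 with an adjusted p of 0.0160 in edgeR's test, and Zim1 was then called at 8PM too. Without TAN replicates 1 and 2 at 8PM, both at 0, the log2 fold change of Zim1 at 8PM was -0.06 in place of -1.05. Of 52 fits that left out a library or a replicate number, 2 called the mean of Zim1, and the mean came as near to 0 as -0.53. At 12AM the ad-lib libraries held 0.781, 1.10, 0.920 and 0.845 CPM and the TAN libraries 0, 0.188, 0.117 and 1.52 CPM. Again 3 TAN libraries were below every ad-lib library, and replicate 4 was above. This is the TAN library that was also high in Peg3 at this time.

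Mest varied widely, over 65.1-fold in ad-lib and 52.3-fold in TAN libraries, beside 47.4-fold and 97.2-fold for Plagl1. Its ad-lib libraries at 12PM held 304, 31.9, 122 and 30.8 CPM and its TAN libraries 5.03, 15.8, 91.0 and 34.9 CPM, with overlap. At 4AM the ad-lib libraries held 39.9, 52.6, 91.8 and 4.67 CPM and the TAN libraries 17.1, 19.9, 11.3 and 11.8 CPM. Here 3 ad-lib libraries lay above the TAN range and replicate 4 below it, and the fitted difference of -1.65 (SE 0.94) had an adjusted p of 0.9995 in edgeR's test. TAN replicates 1 and 2 at 8PM held 3.14 and 1.80 CPM of Mest against 36.8 and 55.7 CPM in the other two, and without them the difference at 8PM was 0.59 in place of -0.33.

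Plagl1 differed in sign between 4PM and 8PM without passing the test at either. At 4PM the ad-lib libraries held 32.5, 26.8, 20.9 and 28.2 CPM and the TAN libraries 78.7, 74.8, 20.1 and 54.1 CPM, a log2 fold change of 1.07 (SE 0.74) with an adjusted p of 0.322 in edgeR's test. At 8PM the ad-lib libraries held 20.8, 16.2, 21.7 and 32.8 CPM and the TAN libraries 0.810, 2.21, 8.66 and 32.6 CPM, a log2 fold change of -1.05 (SE 0.74) with an adjusted p of 0.380, and of -0.16 without TAN replicates 1 and 2. In each case 3 TAN libraries lay on 1 side of the ad-lib range and the last within or next to it. Plagl1 was called at 8PM without TAN replicate 4 of that time.

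Cdkn1c at 4PM was the only diet contrast besides Peg3 at 8PM in which the libraries of the diets did not overlap. Over all genes tested the diets did not overlap in 3.07% at 8AM, 4.84% at 12PM, 30.6% at 4PM, 16.1% at 8PM, 9.13% at 12AM and 3.09% at 4AM. The ad-lib libraries held 13.4, 13.9, 12.9 and 15.4 CPM and the TAN libraries 32.7, 25.6, 19.99 and 17.6 CPM. All TAN libraries were higher, with a log2 fold change of 0.78 (SE 0.38) and an adjusted p of 0.146 in edgeR's test. At this time 8 of 8 adipocyte markers had a positive log2 fold change (median 1.06, 2 called higher), 5 of 5 genes that vary with fat mass were positive (median 1.18, none called, 1 by unadjusted p), and 10 of 10 lymphocyte markers were negative (median -3.63, 3 called lower); their part in the Cdkn1c values was not tested. Without TAN replicates 1 and 2 at 8PM, Cdkn1c was called at 8PM and for a difference between time points.

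Among the low members, Dlk1 was above 0 in 46 of 48 libraries and Meg3 in 43. H19 in ad-lib libraries had a median of 0.852 CPM, but replicate 3 held 9.40 CPM at 8AM, 16.96 CPM at 12PM and 5.94 CPM at 4AM, and among TAN libraries replicate 1 at 12PM held 6.88 CPM. In those 4 libraries the mean log2 CPM of skeletal muscle markers was 5.21, 7.05, 8.33 and 6.37, against a median of -0.62 in ad-lib and -0.63 in TAN libraries. Other libraries with high muscle markers held little H19. Ad-lib replicate 1 at 8PM had muscle markers at 5.10 and H19 at 1.17 CPM, and ad-lib replicate 3 at 12AM 4.85 and 0.889 CPM. Meg3 ranged from 0 to 3.44 CPM in ad-lib and from 0 to 4.32 CPM in TAN libraries, with TAN replicates 1 and 2 at 8PM both at 0 counts beside a difference there of -1.58 (SE 1.22) that was -0.58 without them. Dlk1 never exceeded 2.78 CPM and was highest in ad-lib replicate 1 at 4PM. Grb10 spanned 20.2 to 85.8 CPM in ad-lib and 15.8 to 87.0 CPM in TAN libraries, and its medians of 48.8 and 48.7 CPM were almost the same.

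Variation over the 6 times was tested within each diet for the 8 members, since the group means of Peg3 had entered its choice. In ad-lib libraries 0 of 8 were called at an adjusted p under 0.05, against 0.0551% of all genes (11 genes), with 0 by unadjusted p and 0 called by DESeq2 and limma voom, which also gave 0 by unadjusted p. In TAN libraries 0 of 8 were called, against 23.0% of all genes, with 1 by unadjusted p (Plagl1, adjusted p 0.0994 in edgeR's test), while DESeq2 called 1 (Plagl1; 1 by unadjusted p) and limma voom 2 (Plagl1 and Zim1; 3 by unadjusted p). Leaving out single libraries gave between 0 and 2 members, and TAN replicates 3 and 4 at 8PM were the libraries whose absence brought a call: Zim1 without the former, Plagl1 and Grb10 without the latter. For Peg3, described without a test, the TAN group means were 21.0 ± 8.66 CPM at 8AM, 32.5 ± 21.2 at 12PM, 25.2 ± 11.1 at 4PM, 5.54 ± 2.99 at 8PM, 9.70 ± 7.87 at 12AM and 34.5 ± 11.7 at 4AM (SD, n = 4).

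Whether members moved with Peg3 from library to library was asked within each diet, after the mean of each time had been removed from log2 CPM, with 24 libraries, two-sided permutation tests within time points and 16 relations adjusted together. In ad-lib libraries Zim1 followed Peg3 with a Pearson r of 0.87 (permutation p 1e-05, the smallest that can be given; adjusted p 0.00016) and a Spearman rho of 0.81 (p 0.00039, adjusted 0.00261). Plagl1 gave r 0.83 (permutation p 0.00092, adjusted p 0.00368) and rho 0.70 (p 0.0019, adjusted 0.0076). Grb10 gave r 0.67 (permutation p 0.0113, adjusted p 0.0362) but rho 0.42 (p 0.103, adjusted 0.175). Mest gave r 0.56 (permutation p 0.0385, adjusted p 0.0879) and rho 0.43 (p 0.105, adjusted 0.175), which did not pass. Without the libraries farthest from the median of Peg3, ad-lib replicates 3 and 4 at 4AM, r was 0.80 for Zim1, 0.72 for Plagl1, 0.48 for Grb10 and 0.37 for Mest.

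In TAN libraries Plagl1 gave r 0.70 (permutation p 0.0003, adjusted p 0.00192) and rho 0.74 (p 0.00049, adjusted 0.00261), and Grb10 r 0.67 (permutation p 0.00036, adjusted p 0.00192) and rho 0.73 (p 0.00031, adjusted 0.00261). Zim1 gave r 0.45 (permutation p 0.0557, adjusted p 0.111) and rho 0.41 (p 0.0696, adjusted 0.175), and whether its relation differed between the diets was not tested. Meg3 gave r 0.57 (permutation p 0.0238, adjusted p 0.0634) and rho 0.57 (p 0.0122, adjusted 0.0391). Without TAN replicate 4 at 12AM and replicate 3 at 12PM, r was 0.67 for Plagl1, 0.71 for Grb10, 0.25 for Zim1 and 0.44 for Meg3. Of the 16 relations 5 passed by Pearson's r, namely Zim1, Plagl1 and Grb10 in ad-lib and Plagl1 and Grb10 in TAN, while H19, Dlk1 and Cdkn1c gave r between -0.18 and 0.32 in either diet.

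**Figure D3:**
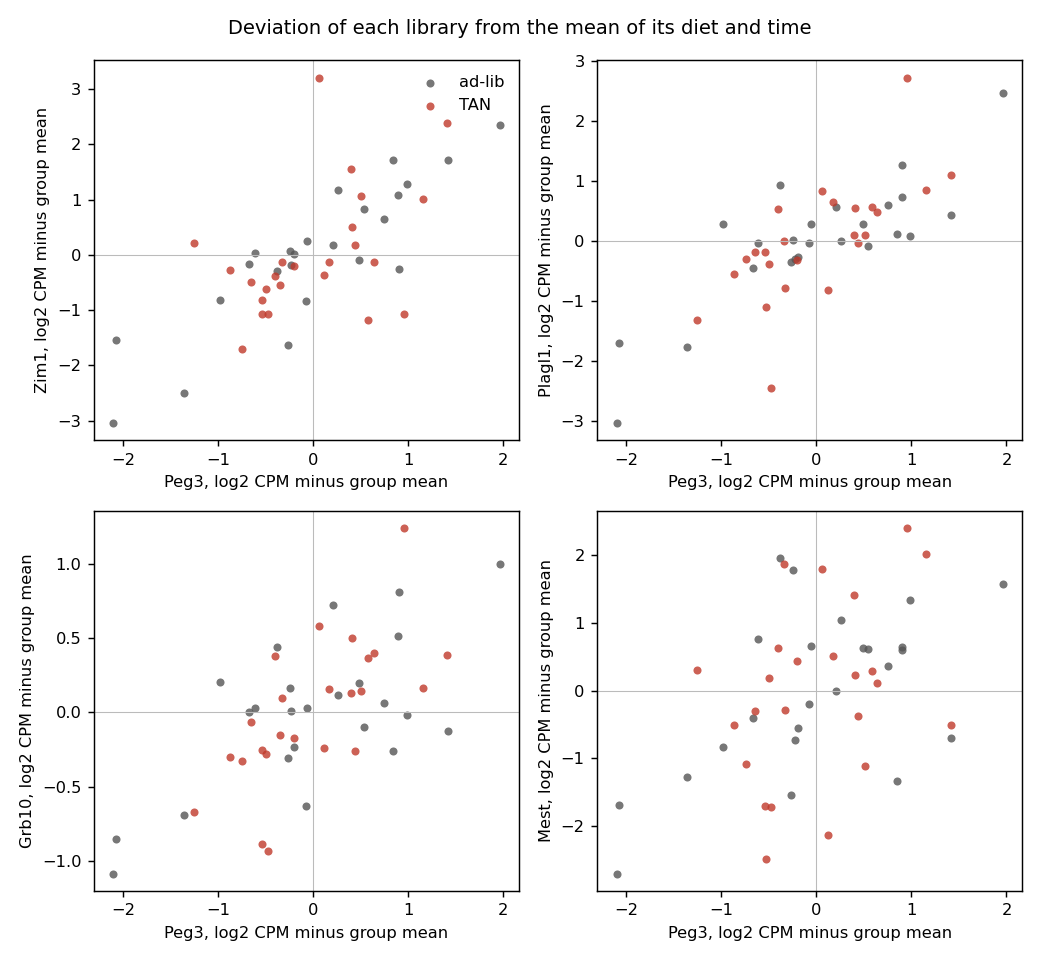
Deviation of each library from the mean of its diet and time, in log2 CPM, for Peg3 (horizontal) and Zim1, Plagl1, Grb10 and Mest (vertical), with 24 ad-lib libraries in grey and 24 TAN libraries in red. In ad-lib libraries Pearson's r is 0.87 for Zim1 and 0.83 for Plagl1, and in TAN libraries 0.70 for Plagl1 and 0.67 for Grb10.

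Other genes followed Peg3 as closely. Over the 48 libraries and all tested genes, with each group mean removed, the genes most like Peg3 were Sptbn1 (r 0.89), Itih5 (0.89), Tmem245 (0.87), Spag9 (0.87) and Ipo9 (0.87), and the least like it were Rps2 (-0.87), Pcna (-0.87), Arpc4 (-0.87), Cox7a2l (-0.87) and Erh (-0.87). On the same measure Plagl1 (r 0.77) lay at the 99.2 percentile of all genes, Zim1 (0.71) at 98.3, Grb10 (0.66) at 97.2 and Mest (0.46) at 88.7. The 1998 genes with the highest r had a median length of 6969 bases, the 1997 with the lowest 2522 and those between 3311, beside 13324 for Peg3, 8086 for Zim1 and 7819 for Plagl1. A slope of each library's log2 deviations on log2 gene length, over genes other than the members, moved with Peg3 (r 0.84, permutation p 1e-05, adjusted p 0.000124, rho 0.82, p 1e-05, adjusted 0.000141, r 0.88 in ad-lib and 0.75 in TAN, r 0.81 without the 2 libraries of most extreme slope). With that slope removed, 0 of the 16 relations with Peg3 passed (5 by unadjusted permutation p), with r 0.59 for Zim1 and 0.47 for Plagl1 in ad-lib and 0.55 for Plagl1 and 0.53 for Grb10 in TAN. With the TEC share removed 8 of 16 passed, and with lymphocyte and muscle markers removed 3 of 16. With the slope as a covariate in edgeR's fit the mean log2 fold change of Peg3 was -1.08.

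Members were also compared with other measures of the library, over 99 relations of 9 members with 11 measures in 48 libraries. Many of the 99 passed at an adjusted permutation p under 0.05, and those given here are a part of them. Mest and 5 genes that vary with fat mass (Lep, Sfrp5, Bmp3, Npr3 and Cav1) moved together with r 0.90 (permutation p 1e-05, adjusted p 0.000124) and rho 0.92 (p 1e-05, adjusted 0.000141), with r 0.92 in ad-lib and 0.89 in TAN libraries and 0.90 without the 2 most extreme libraries. Cdkn1c gave r 0.85 with the same genes (permutation p 1e-05, adjusted p 0.000124, rho 0.81, p 1e-05, adjusted 0.000141, r 0.77 without the 2 most extreme), and Grb10 r 0.79 (permutation p 1e-05, adjusted p 0.000124, rho 0.78, p 1e-05, adjusted 0.000141, r 0.74 without the 2). Plagl1 gave 0.72 (permutation p 0.00014, adjusted p 0.000815, rho 0.65, p 0.00014, adjusted 0.000866, r 0.67 without the 2). Peg3 gave 0.39 (permutation p 0.0136, adjusted p 0.0313, rho 0.38, p 0.0333, adjusted 0.066, r 0.37 without the 2). With the adipocyte markers r was 0.83 for Cdkn1c, 0.77 for Grb10, 0.69 for Mest, 0.64 for Plagl1 and 0.30 for Peg3. Those of Cdkn1c, Grb10, Mest and Plagl1 passed (adjusted permutation p 0.000247, 0.000247, 0.00066 and 0.00868). The relations of these members were thus not particular to the fat mass genes. Endothelial markers moved with Grb10 (r 0.84, permutation p 1e-05, adjusted p 0.000124, rho 0.81, p 1e-05, adjusted 0.000141, r 0.84 without the 2), with Plagl1 (r 0.76, permutation p 6e-05, adjusted p 0.000424, rho 0.75, p 1e-05, adjusted 0.000141, r 0.78 without the 2), with Peg3 (r 0.63, permutation p 1e-05, adjusted p 0.000124, rho 0.67, p 2e-05, adjusted 0.00022, r 0.69 without the 2) and with Zim1 (r 0.61, permutation p 0.00027, adjusted p 0.00148, rho 0.55, p 0.00062, adjusted 0.00307, r 0.54 without the 2). Lymphocyte markers went against Grb10 (r -0.74, permutation p 1e-05, adjusted p 0.000124, rho -0.82, p 1e-05, adjusted 0.000141, r -0.67 without the 2). They also went against Plagl1 (r -0.65, adjusted permutation p 0.00333), Cdkn1c (-0.62, 0.0055), Mest (-0.51, 0.0159) and Peg3 (-0.49, 0.0313). Macrophage markers went against Peg3 (r -0.63, adjusted permutation p 0.00511), Plagl1 (-0.56, 0.0153) and Grb10 (-0.48, 0.0299). H19 moved with skeletal muscle markers (r 0.61, permutation p 0.0003, adjusted p 0.00153, rho 0.49, p 0.00286, adjusted 0.0099, r 0.53 without the 2). The share of counts on mitochondrial genes moved with Plagl1 (r 0.71), Grb10 (0.69) and Peg3 (0.68), and the TEC share with Peg3 (0.65). Schwann cell markers moved with Grb10 (0.77) and Plagl1 (0.73). Their part in the members' levels was not tested.

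**Figure D4:**
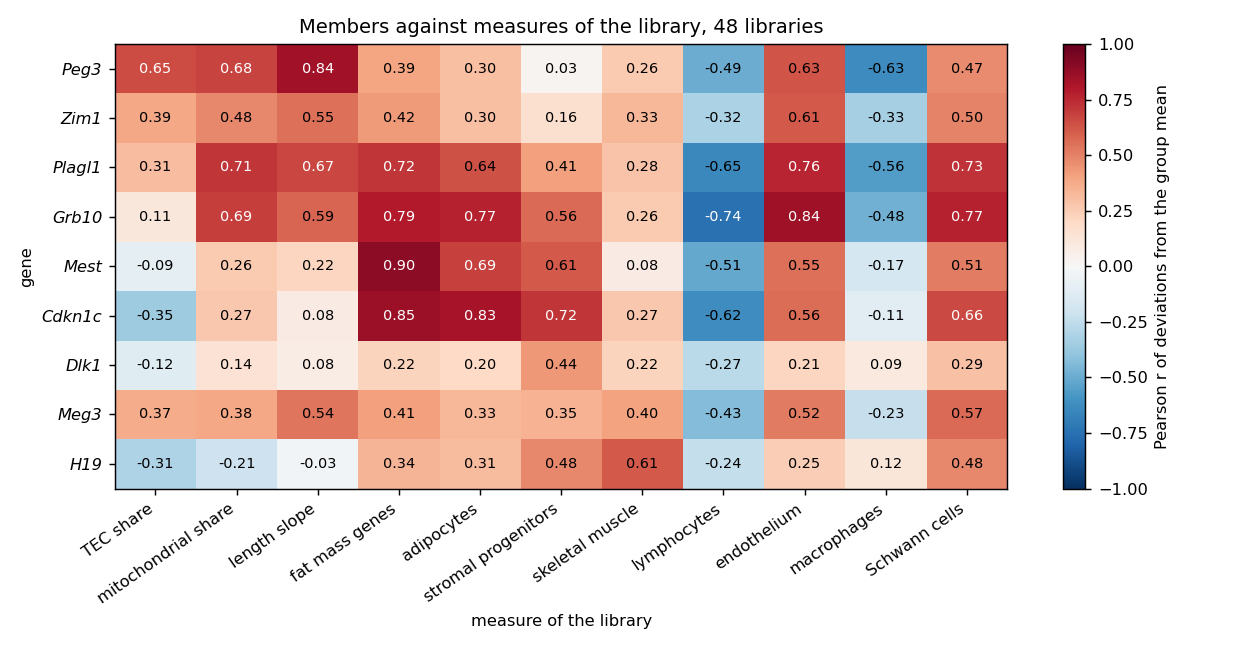
Pearson r over 48 libraries between each member (rows) and 11 measures of the library (columns), each as deviation from its group mean. Peg3 reads 0.84 with the length slope, Mest 0.90 and Cdkn1c 0.85 with the fat mass genes, and H19 0.61 with skeletal muscle markers.

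**Figure D5:**
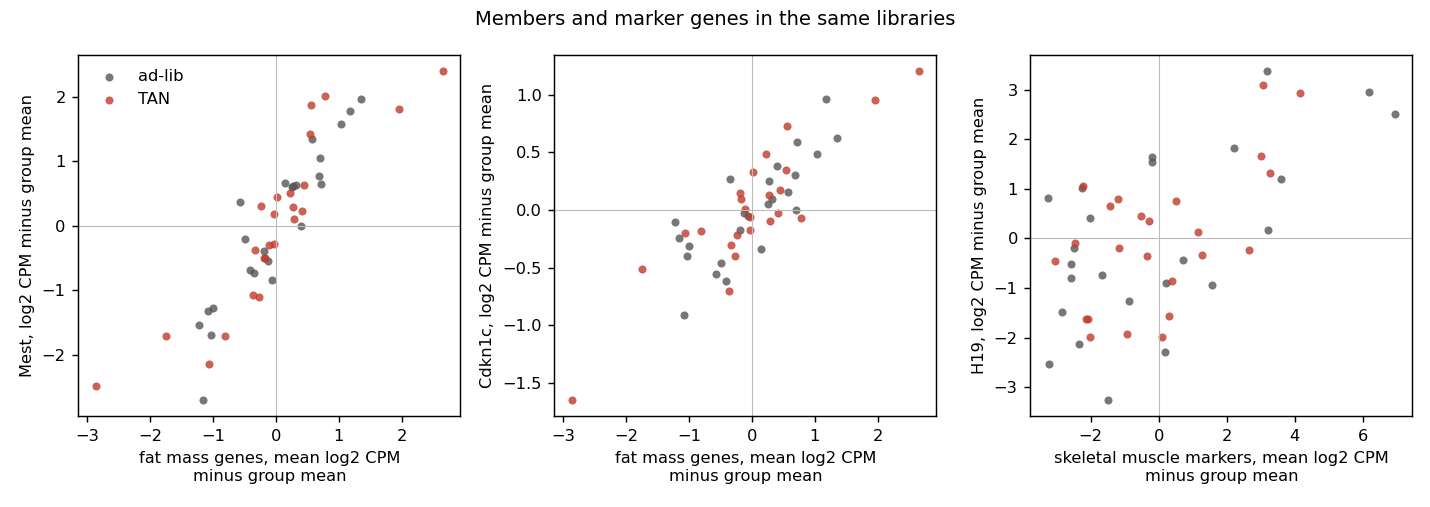
Deviation from the group mean, in log2 CPM, of Mest and Cdkn1c against the mean of 5 fat mass genes and of H19 against the mean of 10 skeletal muscle markers, with ad-lib libraries in grey and TAN libraries in red. The points of Mest (r 0.90) and Cdkn1c (r 0.85) lie along a line, and those of H19 (r 0.61) scatter more.

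Of 54 other imprinted genes, 53 were in the table and 39 passed the filter. In the mean over the time points 3 of 39 were called, all lower in TAN, beside a background of 5.42%, with a median of -0.09 over the list and -0.08 over all genes. Slc38a4, an amino acid transporter, had a log2 fold change of -1.26 (SE 0.27, adjusted p 0.00439 in edgeR's test), with a mean of 8.09 ± 6.31 CPM in ad-lib and 3.57 ± 2.15 CPM in TAN (SD, n = 24). Nnat (neuronatin) had -0.64 (SE 0.19, adjusted p 0.0383) and Sfmbt2, a Polycomb group protein, -1.17 (SE 0.36, adjusted p 0.0444), and of 52 fits that left out a library or a replicate number, 20 lost the call of Nnat, 36 that of Sfmbt2 and 1 that of Slc38a4. At 4PM 4 of 39 were called, beside 10.4% of all genes: Sfmbt2 (-4.63, SE 1.02), Ddc (-4.19, SE 1.25) and Slc38a4 (-2.01, SE 0.67) were lower and Mcts2, whose reads may be shared with its parent gene, was higher (1.14, SE 0.40). With lymphocyte markers as a covariate none of these 4 was called at 4PM, with values of -1.96 for Sfmbt2, -2.07 for Ddc, -1.80 for Slc38a4 and 0.63 for Mcts2. Of 12 fits that left out libraries the call was lost in 12 for Mcts2, 11 for Slc38a4, 7 for Ddc and 0 for Sfmbt2. At 8PM 1 of 39 was called, beside 7.03% of all genes. It was the antisense RNA Kcnq1ot1 (-3.54, SE 1.06), whose value was -0.40 with the TEC share as a covariate and -4.98 without TAN replicates 1 and 2. Leaving out libraries lost its call in 7 of 12 fits, with values from -5.61 (without TAN replicate 1) to -3.07. No gene of the list was called at the remaining times by edgeR, where 3, 1, 3 and 0 passed by unadjusted p with the fold limit at 8AM, 12PM, 12AM and 4AM. Over time within TAN 6 of 39 were called, beside 23.0% of all genes.

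Of 17 IGF and insulin signalling partners 16 passed the filter. In the mean 0 of 16 were called by edgeR's test (1 by unadjusted p), 14 of 16 were negative and the median log2 fold change was -0.19, beside 5.42% called, 60.7% negative and a median of -0.08 over all genes. Igfbp5, a secreted IGF binding protein, was the 1 of 16 called at 8PM, beside 7.03% of all genes (-1.67, SE 0.48, adjusted p 0.0230 in edgeR's test) and no other gene was called at any time, and without TAN replicates 1 and 2 at 8PM its value was -1.04 with an adjusted p of 0.216. Insr, the insulin receptor, was the gene of this list most like Peg3 from library to library (r 0.86, rho 0.81, 48 libraries), at the 99.965 percentile of all genes. Igfbp3 was the least like it (r -0.67, rho -0.55), at the 2.73 percentile. Neither relation was tested, and the length slope, which moved with Peg3, was not removed from them.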

How the data were processed

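RNA-seq of mouse sWAT was analysed in 48 libraries, grouped by diet and time from the sample labels. The authors deposited raw counts per gene and library without normalization, and FPKM group means that were not used. The submitters' processing notes name TopHat 1.3.3, DESeq2 1.20.0, limma and edgeR, and the builds mm9, mm10 and GRCm38, without roles, and table coordinates are those of GRCm38. Strandedness is not given in the sources used here.

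CPM and log2 CPM (prior count 2) used TMM factors, and RPKM the deposited gene lengths. One robust quasi-likelihood model of the 12 groups was fitted with edgeR 4.0.16 (R 4.3.3, filterByExpr, minimum count 10), with Benjamini-Hochberg adjustment over 19977 genes. Calls at a time needed an adjusted p below 0.05 and a change of more than 1 log2 unit, and other calls the adjusted p alone. Correlations used 100000 permutations within groups. The members and lists were chosen with earlier results of these data known. Named were all members, called genes of both lists, and the 5 genes most and the 5 least correlated with Peg3. Insr and Igfbp3 were named outside that rule, as the genes of their list most and least like Peg3.

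Alternatives were no filter, RLE factors, DESeq2 1.42.0, limma voom 3.58.1, the replicate number as a block, marker and TEC covariates, and leaving out libraries. A length slope covariate, TEC share and slope in the correlations, leaving out 2 libraries at 8PM, and the share of genes without overlap were chosen after seeing the data. Total counts of 15636400 to 29913300 leave members near 1 CPM with few reads. Models were tested on simulated data. No pair of libraries was identical, and 0 sample columns were unused. The replicate number entered only an alternative.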

Additional observations from a re-analysis of the deposited data

Results flagged for a closer look

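Among 111 groups of 4 libraries of a member, 13 held a library that stood apart from the other 3 by Dixon's ratio at its 95% critical value, where chance gives about 1 in 20 for normally distributed values, and in all 13 it was the highest. CPM near 0 are skewed upward and the ratio is 1 wherever the other 3 libraries are at 0 (Igf2 and Zim1 at 8PM), so the number of such groups is not read against chance. Zim1 had 4 of them, in TAN replicate 3 at 8AM (2.10 CPM, others 0.328 to 0.591), at 12PM (3.39, others 1.23 to 1.34) and at 8PM (1.75, others 0), and in TAN replicate 4 at 12AM (1.52, others 0 to 0.188). In that last library Peg3 (21.5 CPM, others 4.73 to 6.34), Meg3 (3.46, others 0.0628 to 0.176) and Igf2 (0.415, others 0) stood apart too. H19 had 4, in ad-lib replicate 3 at 8AM (9.40 CPM) and at 12PM (16.96), in TAN replicate 1 at 12PM (6.88) and in TAN replicate 3 at 8PM (2.41). Mest stood apart in TAN replicate 3 at 12AM (79.2 CPM, others 10.1 to 17.6), and Igf2 in ad-lib replicate 3 at 4PM (0.430 CPM, others 0).

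Of the imprinted genes outside the members, Sfmbt2 had a TAN effect that differed between time points (adjusted p 0.0477, edgeR's quasi-likelihood F test), the 1 of 39 called beside 8.98% of all genes.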

How the results depend on the processing

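At 8AM, 12PM, 4PM, 12AM and 4AM, and for time in ad-lib, every alternative gave 0 called members. At 8PM the count was 1 with the lymphocyte covariate and 1 without TAN replicates 1 and 2 (chosen after seeing the data), with 0 to 1 on leaving out replicates. The mean gave 0 to 1 on leaving out replicates, and the difference between times 1 without TAN replicates 1 and 2 at 8PM. Time in TAN gave 2 with limma voom, 1 with DESeq2, 1 with the lymphocyte covariate, 1 without TAN replicates 1 and 2 at 8PM, and 0 to 2 on leaving out replicates. Relations with Peg3 numbered 3 with lymphocyte and muscle markers removed, 8 with TEC share removed and 0 with the length slope removed, against 5.

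The sign of Peg3 turned at 4PM with the TEC covariate (0.013) and at 4AM with limma voom (0.49), the lymphocyte covariate (0.34) and the muscle covariate (0.034), and on leaving out replicates it ran from -0.57 to 0.73 at 4AM. Meg3 near 0 turned with no filter (-0.0054), limma voom (-0.18), the replicate block (-0.065), the lymphocyte covariate (-0.33) and the slope (-0.022), and ran from -0.62 to 0.37 on leaving out replicates. Dlk1 turned with the stromal covariate (0.082), Cdkn1c with the TEC covariate (-0.050) and Grb10 without TAN replicates 1 and 2 at 8PM (0.0058), with -0.21 to 0.031 on leaving out replicates. Among r with Peg3, those that turned in ad-lib were H19 (-0.36 with markers removed, -0.31 with the slope removed, -0.072 without the farthest libraries), Cdkn1c (-0.40 with markers removed, -0.036 without the farthest), Dlk1 (0.045 with TEC removed) and Meg3 (-0.039 with the slope removed). In TAN, H19 turned (0.11 with TEC removed, 0.23 with the slope removed). The cause was not tested.

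Same-numbered libraries of the diets correlated above 0.1 in 7 of 24 pairs (median 0.042, highest 0.48, 5000 genes). Libraries of different numbers were not compared, so this cannot decide whether the numbers pair libraries. In the fit with the replicate block 0 members were called in each diet and time comparison and the mean of Peg3 was -1.18. Counting depth limits Zim1, Dlk1, H19, Meg3 and Igf2, for which a few counts decide a fold change.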
